A study of Homo sapiens with 12 samples.

Results

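The Notch genes described here are the ligands JAG1, JAG2 and DLL1, the receptors NOTCH1, NOTCH2 and NOTCH3, the Fringe enzymes LFNG and MFNG, and the targets HES1 and HEY1. They were chosen by gene symbol, with earlier results of these data known, and all 10 were measured, among 18404 genes in all. Shares over all genes are therefore given beside their counts as a description, not as a test of the list. Expression was read on 12 microarrays from JHU-029 and FaDU, cell lines established from squamous carcinomas of the head and neck. Each line carried a lentiviral shRNA against TP63 (shTP63) or a control vector (shControl), and RNA was taken 72 hours after knockdown. The 4 groups were JHU-029 shTP63, JHU-029 shControl, FaDU shTP63 and FaDU shControl, with 3 arrays each. No other allele or agent is given in the labels, and neither the number of hairpins nor whether replicates were separate cultures is stated. The p-values therefore measure the spread between these samples, which may be technical. TP63 encodes p63, the master transcription factor of basal keratinocytes. Its own level is not analysed here, so the depth of the knockdown on these arrays was not checked.

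Notch signalling passes between touching cells. A Jagged or Delta ligand on a cell engages a Notch receptor on its neighbour, ADAM proteases and then gamma-secretase cut the receptor, and the freed intracellular domain joins RBPJ and a Mastermind protein in the nucleus to switch on genes such as HES1 and HEY1. Fringe enzymes lengthen O-fucose sugars on the receptor's outer domain and so set which ligands it answers to. In stratified epithelium, Notch activity helps keratinocytes leave the basal layer, p63 and Notch are known to restrain each other there, and NOTCH1 is often inactivated in squamous carcinoma of the head and neck.

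Array medians lay between 6.46 and 6.56 on the log2 intensity scale. Arrays of the same group correlated at 0.993 to 0.997 across probe sets, and arrays of different lines at 0.940 to 0.951. Squamous markers were present, with 6 of 6 measured genes above the median gene of the arrays in JHU-029 and 5 of 6 in FaDU, where PKP1, a desmosome protein, lay below it. Over an array, the mean of that list stood 2.94 to 2.98 above the median gene in FaDU shTP63 and 3.36 to 3.49 above it in FaDU shControl. In JHU-029 it stood 4.33 to 4.38 above in shTP63 and 4.36 to 4.42 above in shControl. Of the fibroblast, immune and endothelial markers, 1 of 6 (COL1A1), 1 of 4 (CD68) and 1 of 4 (CDH5) lay above the median gene in FaDU, and in JHU-029 the numbers were 1, 1 and 0. The immune list averaged between -0.72 and -0.70 in FaDU shTP63 and between -0.91 and -0.75 in FaDU shControl, relative to the median gene. In JHU-029 the immune list averaged between -0.88 and -0.83 in shTP63 and between -0.82 and -0.80 in shControl. The endothelial list averaged between -1.54 and -1.36 in FaDU shTP63 and between -1.78 and -1.50 in FaDU shControl. Within it, CDH5 was 0.996 higher in FaDU shTP63 than in FaDU shControl (log2 scale). PECAM1, KDR and TEK changed by 0.04, -0.22 and -0.01. The part of these marker lists in the results below was not tested. In bulk RNA, fewer cells of a type and less RNA per cell cannot be told apart.

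In FaDU, 7 of the 10 Notch genes fell after TP63 knockdown and 0 rose by limma (adjusted p under 0.05). All 3 ligands, the receptors NOTCH1 and NOTCH2, the Fringe enzyme MFNG and the target HES1 were lower. JAG1 fell furthest, 2.71-fold, and NOTCH3, LFNG and HEY1 did not pass. Over all genes tested in FaDU, 26.6% passed, 12.4% being higher and 14.2% lower. The median change of the 10 genes was -0.37 on the log2 scale, against 0.016 over all genes. In JHU-029, 2 of the 10 passed, JAG2 and DLL1, both lower, where 3.15% of all genes passed, 1.8% higher and 1.35% lower. The median change there was -0.08, against 0.00028 over all genes. The 3 arrays of each group did not overlap for 7 of the 10 genes in FaDU, against 36.1% of all genes, and for 6 of 10 in JHU-029, against 24.9% of all genes.

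**Figure D1:**
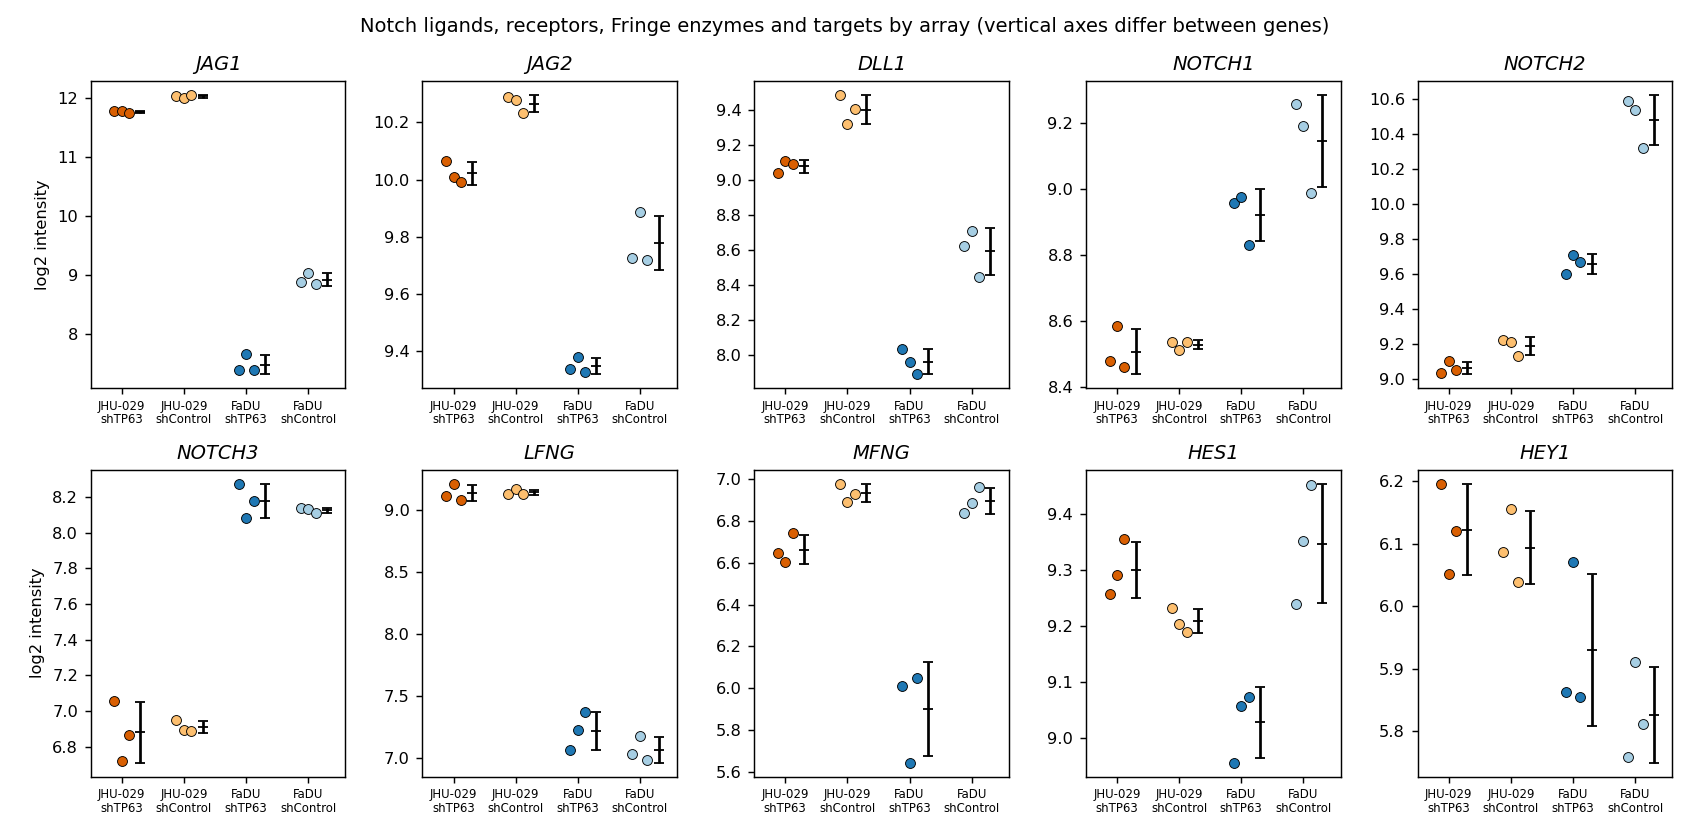
Log2 intensity of the 10 Notch genes on each of the 12 arrays, with 1 panel per gene. Points are arrays, and the black dash with its bar is the group mean with the SD over 3 arrays. In JAG1 the FaDU shTP63 arrays, at 7.38 to 7.66, lie well under the FaDU shControl arrays, at 8.84 to 9.04, whereas the NOTCH3 groups overlap within each line.

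Among the ligands, JAG1 (probe set 8064978), a membrane-bound Jagged ligand, read 7.38, 7.66 and 7.39 in the FaDU shTP63 arrays, against 8.88, 9.04 and 8.84 in the FaDU shControl arrays (log2 intensity). Every knockdown array was more than a full log2 unit below every control array. The means were 7.48 ± 0.16 in FaDU shTP63 and 8.92 ± 0.11 in FaDU shControl (SD, n = 3 each), a change of -1.44 (SE 0.08, limma adjusted p = 1.23e-07). In JHU-029, JAG1 read 11.78, 11.78 and 11.75 in shTP63, against 12.03, 12.01 and 12.05 in shControl. These groups did not overlap either, but the change of -0.26 (95% interval -0.43 to -0.09, limma adjusted p = 0.104) did not pass. The interval shown is for that gene alone, while the adjusted p takes all 18404 genes into account. The change passed without FaDU shTP63 replicate 2 at the same size (adjusted p = 0.0367) and also with each line fitted alone (adjusted p = 0.0225). Over all 23 alternatives it passed in 4 and did not pass in 19.

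JAG2 (probe set 7981538), the second Jagged ligand, was lower in both lines. In FaDU it read 9.34, 9.38 and 9.33 in shTP63, against 9.73, 9.89 and 9.72 in shControl, and it fell by 0.43 (SE 0.06, limma adjusted p = 0.000122). In JHU-029 it read 10.07, 10.01 and 9.99 in shTP63, against 10.29, 10.28 and 10.23 in shControl, a fall by 0.24 (SE 0.06, limma adjusted p = 0.037). The groups were apart in each line, with 3 of 3 knockdown arrays below the controls. The JHU-029 call was lost without any single JHU-029 array (adjusted p between 0.0524 and 0.145).

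DLL1 (probe set 8130939), a Delta-type ligand known from human epidermal stem cell clusters, followed the same order. Its FaDU shTP63 arrays read 8.03, 7.96 and 7.89, against 8.62, 8.71 and 8.45 in FaDU shControl, and DLL1 fell by 0.63 (SE 0.07, limma adjusted p = 4.17e-05). Its JHU-029 shTP63 arrays read 9.04, 9.11 and 9.09, against 9.48, 9.32 and 9.40 in JHU-029 shControl, and DLL1 fell by 0.32 (SE 0.07, limma adjusted p = 0.0312). No knockdown array reached a control array in either line. As for JAG2, leaving out any single JHU-029 array ended the JHU-029 call (adjusted p between 0.0569 and 0.138).

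Of the receptors, NOTCH2 (probe set 7919095) changed most. It read 9.60, 9.71 and 9.67 in the FaDU shTP63 arrays, against 10.59, 10.54 and 10.32 in the FaDU shControl arrays, and it fell by 0.82 (SE 0.07, limma adjusted p = 3.81e-06), a 1.77-fold difference. The JHU-029 arrays read 9.04, 9.10 and 9.05 in shTP63, against 9.23, 9.21 and 9.13 in shControl, with a change of -0.13 (95% interval -0.28 to 0.03, limma adjusted p = 0.465). That small gap left the groups apart without passing the test. The NOTCH2NL genes are partial copies of NOTCH2, and the probe set used is listed for NOTCH2 alone. Whether it also reads those copies was not tested, and a further probe set listed for NOTCH2 together with NOTCH2NLA and NOTCH2NLB was left out.

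NOTCH1 (probe set 8165217), the main Notch receptor of keratinocytes, read 8.96, 8.98 and 8.83 in FaDU shTP63, against 9.26, 9.19 and 8.99 in FaDU shControl. The lowest control array lay just above the highest knockdown array, and NOTCH1 fell by 0.22 (SE 0.07, limma adjusted p = 0.0373). This call was lost in 7 of the 12 fits without 1 array (adjusted p up to 0.139). They were those without FaDU shControl replicate 1 or 2, FaDU shTP63 replicate 1 or 3, or any JHU-029 shControl array. Of the FaDU controls, 2 carry the word new in their titles. Without both, which leaves 1 FaDU control array that is assumed to vary like the other groups, the change was -0.07 (adjusted p = 0.637). It was also lost after quantile (adjusted p = 0.113) or cyclic loess normalization (adjusted p = 0.0781), with each line fitted alone (adjusted p = 0.123) and with a random replicate block (adjusted p = 0.0592). In JHU-029, NOTCH1 read 8.48, 8.58 and 8.46 in shTP63, against 8.54, 8.51 and 8.54 in shControl, and the groups overlapped (change -0.02, 95% interval -0.18 to 0.14, limma adjusted p = 0.953). The sign of that change turned without JHU-029 shTP63 replicate 3.

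NOTCH3 (probe set 8034940), a receptor prominent in vascular smooth muscle and also expressed in keratinocytes, did not pass in either line. It read 8.27, 8.08 and 8.18 in FaDU shTP63, against 8.14, 8.13 and 8.11 in FaDU shControl, a change of 0.05 (95% interval -0.12 to 0.22, limma adjusted p = 0.692). In JHU-029 it read 7.06, 6.72 and 6.87 in shTP63, against 6.95, 6.89 and 6.89 in shControl, a change of -0.03 (95% interval -0.20 to 0.14, limma adjusted p = 0.929), whose sign turned without shTP63 replicate 2. The groups overlapped in both lines, and the knockdown arrays were more spread than the controls. In JHU-029 both group means lay under the median gene of their arrays.

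The Fringe enzymes differed from each other. MFNG (probe set 8075924) read 6.01, 5.65 and 6.05 in the FaDU shTP63 arrays, against 6.83, 6.89 and 6.96 in the FaDU shControl arrays. It fell by 0.99 (SE 0.09, limma adjusted p = 7.59e-06), a 1.99-fold difference, with no overlap. In JHU-029 it read 6.65, 6.60 and 6.74 in shTP63, against 6.98, 6.89 and 6.93 in shControl, again apart, with a change of -0.27 (95% interval -0.47 to -0.07, limma adjusted p = 0.166) that did not pass. The JHU-029 change passed without FaDU shTP63 replicate 2 (adjusted p = 0.0307) and with each line fitted alone (adjusted p = 0.0378). In the other 20 of 22 alternatives that change did not pass. MFNG lay under the median gene of the arrays in all 4 groups, by 0.32 to 1.31, so the size of its fold is uncertain.

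LFNG (probe set 8131143), the Fringe enzyme most studied in development, read 7.07, 7.23 and 7.38 in FaDU shTP63, against 7.04, 7.18 and 6.99 in FaDU shControl. These overlapped, and the change of 0.16 (95% interval -0.01 to 0.33, limma adjusted p = 0.176) did not pass with all arrays. It passed without FaDU shTP63 replicate 1, at 0.23 (adjusted p = 0.0419). In the other 22 of 23 alternatives it did not pass, with changes down to 0.08. In JHU-029 the arrays read 9.12, 9.21 and 9.08 in shTP63, against 9.13, 9.17 and 9.13 in shControl, a change of -0.01 (95% interval -0.18 to 0.17, limma adjusted p = 0.99). That sign turned in 3 of the fits without 1 array.

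**Figure D2:**
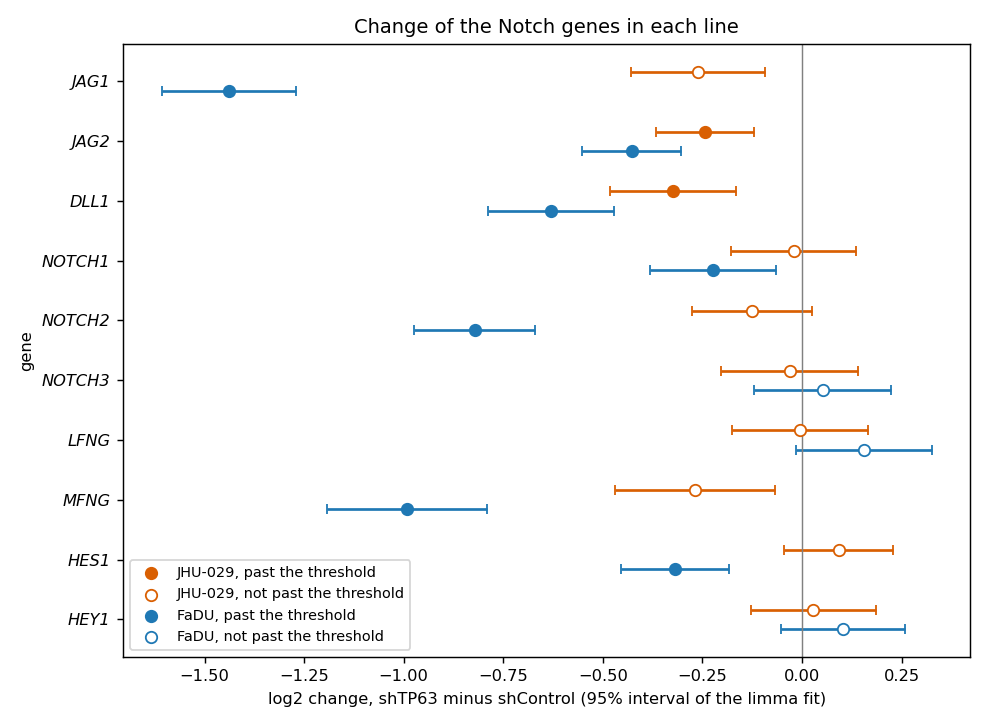
Log2 change (shTP63 minus shControl) of each Notch gene in JHU-029 and FaDU, with the 95% interval of the limma fit for that gene. Filled points passed an adjusted p of 0.05 over all genes and open points did not. JAG1 in FaDU lies furthest to the left at -1.44, and no filled point lies right of 0.

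HES1 (probe set 8084880), a repressor of the basic helix-loop-helix family and the best known direct Notch target, read 8.96, 9.06 and 9.07 in the FaDU shTP63 arrays, against 9.24, 9.35 and 9.45 in the FaDU shControl arrays. The groups were apart, and HES1 fell by 0.32 (SE 0.06, limma adjusted p = 0.00206), a 1.25-fold difference. In JHU-029 it read 9.26, 9.29 and 9.35 in shTP63, against 9.23, 9.20 and 9.19 in shControl. There every knockdown array lay above every control array, by a small margin, and the change of 0.09 (95% interval -0.04 to 0.23, limma adjusted p = 0.596) did not pass.

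HEY1 (probe set 8151457), a related repressor, lay under the median gene of the arrays in all 4 groups, by 1.20 to 1.38. It read 5.86, 6.07 and 5.86 in FaDU shTP63, against 5.76, 5.91 and 5.81 in FaDU shControl, with a change of 0.10 (95% interval -0.05 to 0.26, limma adjusted p = 0.337). In JHU-029 it read 6.20, 6.05 and 6.12 in shTP63, against 6.09, 6.16 and 6.04 in shControl, with a change of 0.03 (95% interval -0.13 to 0.18, limma adjusted p = 0.926), whose sign turned without shTP63 replicate 1. The groups overlapped in both lines.

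The promoter of HES1 is shown because HES1 is the best known direct Notch target among the members. Those of JAG1 and NOTCH2 are shown because they fell most in FaDU among the members with a promoter sequence. Sequences are the 250 bases before the gene's start, 5′ to 3′ on the gene's strand, from RefSeq on GRCh38.p14, which matched 7 of the 10 members (not DLL1, MFNG and HEY1). The windows are chr3:194135898-194136147, plus strand, for HES1, chr20:10674000-10674249, minus strand, for JAG1, and chr1:120069663-120069912, minus strand, for NOTCH2. Capitals mark the RBPJ core, the letters TGGGAA, or TTCCCA where it lies on the other strand. RBPJ sites with other letters were not searched for, and whether Notch acts through the marked letters was not tested.
HES1: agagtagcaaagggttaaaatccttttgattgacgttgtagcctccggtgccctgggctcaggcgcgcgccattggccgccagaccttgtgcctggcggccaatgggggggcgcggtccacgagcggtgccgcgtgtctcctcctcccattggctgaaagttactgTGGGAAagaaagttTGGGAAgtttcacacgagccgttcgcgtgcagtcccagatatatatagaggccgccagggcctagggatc
JAG1: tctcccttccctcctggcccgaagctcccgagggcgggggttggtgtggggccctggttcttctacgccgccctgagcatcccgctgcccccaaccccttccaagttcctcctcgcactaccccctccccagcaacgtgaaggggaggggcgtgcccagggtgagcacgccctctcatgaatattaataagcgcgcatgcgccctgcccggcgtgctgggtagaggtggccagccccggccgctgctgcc
NOTCH2: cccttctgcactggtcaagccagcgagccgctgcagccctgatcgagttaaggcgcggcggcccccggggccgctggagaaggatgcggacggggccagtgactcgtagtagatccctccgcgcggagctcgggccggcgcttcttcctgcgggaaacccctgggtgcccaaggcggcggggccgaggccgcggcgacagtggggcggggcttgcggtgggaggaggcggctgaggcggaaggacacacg

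The HES1 window held 2 matches to the RBPJ core, both on the strand of the gene, at 84 to 79 and at 70 to 65 bases before the start. Of 35116 promoter windows of that length, 20.8% held at least 1 match and 2.9% held 2 or more. The windows of JAG1, NOTCH2, JAG2, NOTCH1 and NOTCH3 held 0, and of the LFNG windows, which stand for separate starts, 1 held a match. The N-box, a sequence bound by HES proteins with the letters CACNAG or, on the other strand, CTNGTG, matched 3 times in the HES1 window on either strand, and 32.0% of all windows held at least 1. Neither motif's matches overlapped the other's in HES1. A match is a description of the letters in a window and not of binding.

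Whether the effect of TP63 knockdown differed between the lines was tested by the interaction, the FaDU change minus the JHU-029 change. It passed for 4 of the 10 Notch genes, all lower in FaDU, where 13.2% of all genes passed, 4.97% higher and 8.25% lower. JAG1 differed by -1.18 (SE 0.11, limma adjusted p = 4.32e-05), the change being -1.44 in FaDU and -0.26 in JHU-029. MFNG differed by -0.72 (SE 0.13, adjusted p = 0.00329 by limma) and NOTCH2 by -0.70 (SE 0.10, adjusted p = 0.000709 by limma). HES1 differed by -0.41 (SE 0.09, limma adjusted p = 0.00891), with a change of -0.32 in FaDU and 0.09 in JHU-029. JAG1, NOTCH2 and HES1 passed under all 22 alternatives that give this difference, and MFNG under all 21 that test it, those without the FaDU controls titled new among them.

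The other 6 genes did not pass this test. JAG2 differed by -0.18 (95% interval -0.36 to -0.01, limma adjusted p = 0.168) and NOTCH1 by -0.20 (95% interval -0.43 to 0.02, limma adjusted p = 0.242). DLL1 differed by -0.31 (95% interval -0.53 to -0.08, limma adjusted p = 0.0723). That value passed without FaDU shControl replicate 3 (-0.38, adjusted p = 0.0221), and at its full size among genes above the median mean (adjusted p = 0.0265) and with an intensity trend in the variance (adjusted p = 0.0375). In the other 19 of 22 alternatives the DLL1 difference did not pass, and over all 22 it lay between -0.38 and -0.16. NOTCH3, LFNG and HEY1 differed by 0.08, 0.16 and 0.07, with adjusted p by limma of 0.714, 0.413 and 0.718. For the 2 genes that fell in both lines, JAG2 and DLL1, the fall was larger in FaDU, but the difference in its size did not pass.

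Under control shRNA, the lines already differed in 8 of the 10 Notch genes, 3 higher and 5 lower in FaDU, with 63.8% of all genes passing this comparison, 33.4% higher and 30.4% lower. FaDU had less of all 3 ligands and more of all 3 receptors than JHU-029. JAG1 averaged 8.92 ± 0.11 in FaDU shControl and 12.03 ± 0.02 in JHU-029 shControl (SD, n = 3 each), a difference of -3.11 (SE 0.08, limma adjusted p = 4e-12), or 8.65-fold. DLL1 averaged 8.59 ± 0.13 in FaDU shControl and 9.40 ± 0.08 in JHU-029 shControl (difference -0.81). For JAG2 the means were 9.78 ± 0.09 in FaDU shControl and 10.27 ± 0.03 in JHU-029 shControl (difference -0.49). Both smaller ligand differences passed (limma adjusted p = 4.75e-07 for DLL1 and 5.69e-06 for JAG2).

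The receptors ran the other way. NOTCH2 averaged 10.48 ± 0.14 in FaDU shControl and 9.19 ± 0.05 in JHU-029 shControl, 2.45-fold higher in FaDU (limma adjusted p = 3.4e-09). NOTCH3 averaged 8.12 ± 0.01 in FaDU shControl and 6.91 ± 0.03 in JHU-029 shControl, 2.32-fold higher in FaDU (limma adjusted p = 1.98e-08). Its JHU-029 shControl mean lay under the median gene, so the size of that fold is uncertain. NOTCH1 averaged 9.15 ± 0.14 in FaDU shControl and 8.53 ± 0.01 in JHU-029 shControl, 1.53-fold higher (limma adjusted p = 6.41e-06). No FaDU control array overlapped a JHU-029 control array for any ligand or receptor, and 69% of all genes were apart in this comparison.

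LFNG averaged 7.07 ± 0.10 in FaDU shControl and 9.14 ± 0.02 in JHU-029 shControl, 4.21-fold lower in FaDU (limma adjusted p = 1.3e-10). Its FaDU shControl mean lay slightly under the median gene, so the size of that fold is uncertain. MFNG, at 6.89 ± 0.06 in FaDU shControl and 6.93 ± 0.04 in JHU-029 shControl, did not pass (difference -0.04, 95% interval -0.24 to 0.16, limma adjusted p = 0.746), and its sign turned with each array centred on its median and without both FaDU controls titled new. HEY1 was 0.27 lower in FaDU as a log2 difference (5.83 ± 0.08 in FaDU shControl and 6.09 ± 0.06 in JHU-029 shControl, limma adjusted p = 0.00548). Centring each array on its median moved the median difference of all genes by 0.10, and HEY1 then missed the threshold (adjusted p = 0.0595). HES1 averaged 9.35 ± 0.11 in FaDU shControl and 9.21 ± 0.02 in JHU-029 shControl. Its difference of 0.14 did not pass (limma adjusted p = 0.0699). Of the alternatives, 7 brought it past the threshold, among them quantile normalization (0.28, adjusted p = 0.00105), leaving out FaDU shControl replicate 1 (0.19, adjusted p = 0.0178) and leaving out both FaDU controls titled new (0.24, adjusted p = 0.0186), a fit with 1 FaDU control array whose spread is taken from the other groups. The FaDU change and this difference share the FaDU shControl arrays, so they are not independent readings.

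**Figure D3:**
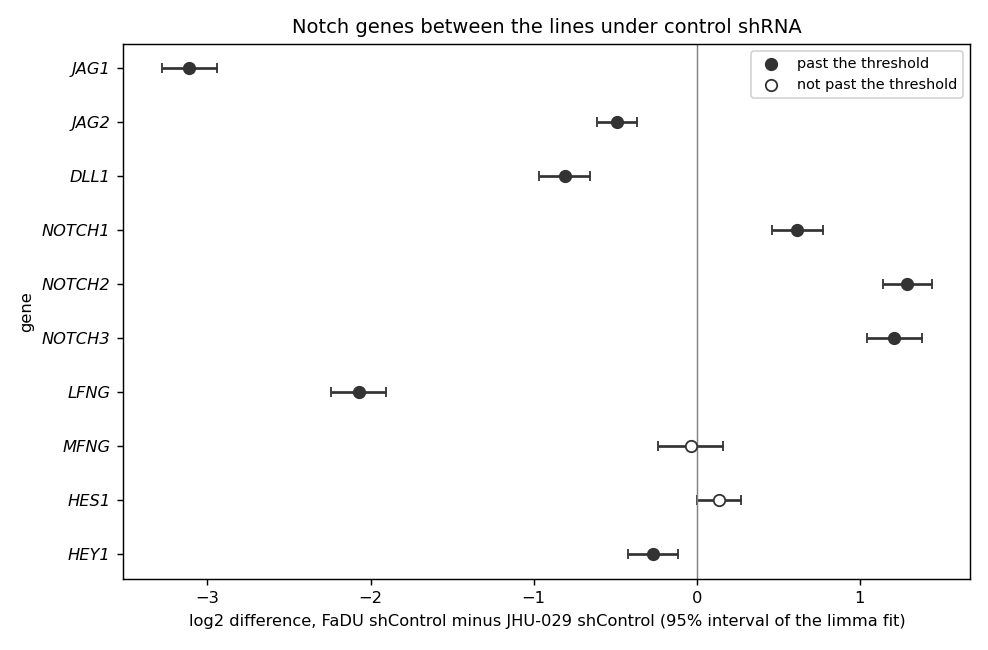
Log2 difference between the lines under control shRNA (FaDU shControl minus JHU-029 shControl) for each Notch gene, with the 95% interval of the limma fit. Filled points passed an adjusted p of 0.05 and open points did not. The 3 ligands and LFNG lie left of 0 and the 3 receptors right of it, between 0.62 and 1.29.

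Beyond these genes, 46 of 51 listed Notch pathway genes were measured. In FaDU 10 of them rose and 9 fell, where 12.4% of all genes were higher and 14.2% lower, with a median change of 0.05. In JHU-029 1 rose and 1 fell, where 1.8% of all genes were higher and 1.35% lower, with a median of 0.01. The JHU-029 count is close to that background. Genes given below without array values, other than DLL4 and TLE1, were picked after their values were seen. DLK2, a non-canonical ligand related to Delta that lacks the receptor-activating domain, fell in both lines. Its FaDU arrays read 8.09, 7.90 and 8.04 in shTP63, against 8.70, 8.79 and 8.68 in shControl (change -0.71, SE 0.06, limma adjusted p = 5.39e-06). Its JHU-029 arrays read 8.23, 8.17 and 8.25 in shTP63, against 8.72, 8.75 and 8.62 in shControl (change -0.48, SE 0.06, limma adjusted p = 0.0016). All knockdown arrays of DLK2 lay below all control arrays of their line. The other 2 ligands and NOTCH4 did not pass in FaDU, whereas the Delta ligand DLL4 rose by 0.47 (limma adjusted p = 0.00248). DLL4 lay under the median gene in every group, so its fold is uncertain in size.

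All 3 further enzymes that build or extend receptor sugars fell in FaDU, where 14.2% of all genes fell. POFUT1, which adds the O-fucose that Fringe extends, read 8.81, 8.63 and 8.87 in FaDU shTP63, against 9.46, 9.39 and 9.33 in FaDU shControl (change -0.62, SE 0.06, limma adjusted p = 1.87e-05). POGLUT1, which adds O-glucose, read 7.37, 7.96 and 7.85 in FaDU shTP63, against 8.10, 8.23 and 8.23 in FaDU shControl (change -0.46, SE 0.12, limma adjusted p = 0.0119). Its knockdown arrays were unevenly low, and the call was lost without both FaDU controls titled new (adjusted p = 0.0841) and with each line fitted alone (adjusted p = 0.0557). RFNG, the remaining Fringe enzyme, fell by 0.31 (adjusted p = 0.00251 by limma). In JHU-029 0 of these 3 passed by limma, with changes between -0.28 and -0.08. Of the 3, 2 had an unadjusted p under 0.05 there, as did 2727 of all 18404 genes.

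Of 7 measured genes of receptor cleavage, 4 rose and 1 fell in FaDU (all genes, 12.4% and 14.2%). APH1B, a gamma-secretase subunit, read 6.35, 6.53 and 6.13 in FaDU shTP63, against 5.54, 5.72 and 5.75 in FaDU shControl (change 0.67, SE 0.11, limma adjusted p = 0.000602). The other rises were those of NCSTN, also a gamma-secretase subunit, by 0.35, and of the proteases ADAM17 by 0.22 and ADAM10 by 0.16. ADAM10 passed narrowly (limma adjusted p = 0.0488), and its call was not followed under the alternatives. The gamma-secretase subunit APH1A fell by 0.24. The APH1 paralogs thus moved in opposite directions. APH1B lay under the median gene in every group, so its fold is uncertain in size. None of the 3 measured ubiquitin ligases that act on ligands passed in FaDU by limma. An unadjusted p under 0.05 was found there for 0 of these 3, against 6710 of all 18404 genes.

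In the nuclear complex, 3 of 7 measured genes rose and 1 fell in FaDU (all genes, 12.4% and 14.2%). MAML2, a Mastermind co-activator, read 8.24, 8.37 and 8.19 in FaDU shTP63, against 7.37, 7.41 and 7.40 in FaDU shControl (change 0.87, SE 0.06, limma adjusted p = 6.51e-07), the largest rise in the list. RBPJ, the DNA-binding partner of the Notch intracellular domain, read 9.43, 9.48 and 9.40 in FaDU shTP63, against 8.91, 8.93 and 8.94 in FaDU shControl (change 0.51, SE 0.06, limma adjusted p = 2.93e-05). A second RBPJ probe set gave 0.32 and did not pass (adjusted p = 0.197). The acetyltransferase EP300 rose by 0.41 and its relative CREBBP fell by 0.21.

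Of 14 inhibitors and turnover genes, 2 rose and 3 fell in FaDU, near the 12.4% and 14.2% over all genes. NRARP, a feedback inhibitor that is itself switched on by Notch, read 9.85, 9.79 and 9.75 in FaDU shTP63, against 10.22, 10.06 and 10.37 in FaDU shControl (change -0.42, SE 0.07, limma adjusted p = 0.000894). The co-repressor TLE1 fell by 0.26 and NUMBL by 0.27, and DTX3L, a ubiquitin ligase, and TLE3 rose by 0.49 and 0.21. In JHU-029 the Deltex ligase DTX4 read 8.43, 8.57 and 8.66 in shTP63, against 8.11, 8.11 and 8.03 in shControl (change 0.47, SE 0.09, limma adjusted p = 0.0158). Its call was lost without shControl replicate 1, 2 or 3 or shTP63 replicate 2 or 3 (adjusted p up to 0.0786). None of the 7 further targets HES2, HES4, HES5, HES6, HES7, HEY2 and HEYL passed in either line by limma. Their FaDU changes lay between -0.11 and 0.22. In FaDU 1 had an unadjusted p under 0.05, against 6710 of all 18404 genes. In JHU-029 0 had one, against 2727 of all 18404 genes. Apart from HES4, these targets lay under the median gene of the arrays in every group, so their readings are limited by dim signal.

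The interaction passed for 10 of the 46 pathway genes, 7 with a higher and 3 with a lower change in FaDU, against 4.97% of all genes higher and 8.25% lower. MAML2 differed by 0.77 (limma adjusted p = 0.000119), APH1B by 0.52 (adjusted p = 0.044 by limma) and DLL4 by 0.50 (adjusted p = 0.0273 by limma). Lower changes in FaDU were those of POFUT1 (-0.46, limma adjusted p = 0.00588), NRARP (-0.35, limma adjusted p = 0.0408) and TLE1 (-0.35, limma adjusted p = 0.0267). The MAML2 difference passed under all 22 alternatives that give it. The calls of APH1B, NRARP, TLE1 and DLL4 were lost in 12, 13, 8 and 8 of the alternatives, with adjusted p up to 0.188, 0.0977, 0.104 and 0.0995, and that of POFUT1 in 1 (0.0505).

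**Figure D4:**
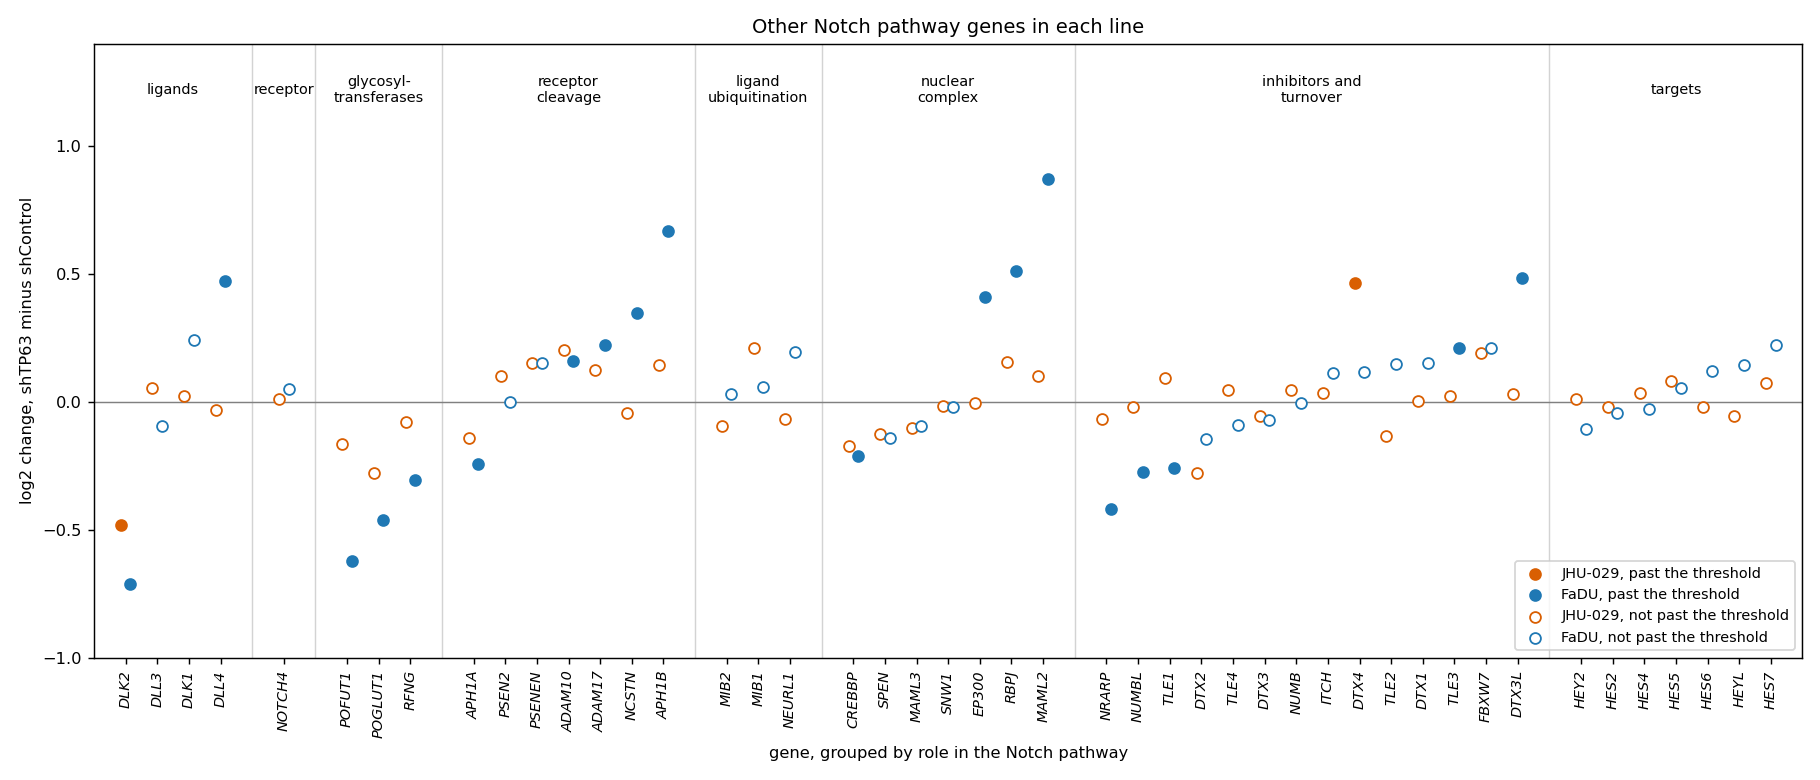
Log2 change (shTP63 minus shControl) of 46 further Notch pathway genes, grouped by role, in JHU-029 and FaDU. Filled points passed an adjusted p of 0.05 over all genes and open points did not. The sugar-adding enzymes of FaDU lie below 0, while MAML2 at 0.87 and APH1B at 0.67 are the highest points.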

How the data were processed

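The deposited table holds linear intensity per probe set for 12 arrays, which the authors made with RMA in R, version 2.15.1, per the submitters' processing notes. RMA is a method that corrects background, equalises arrays and summarises probes; the settings are not given in the sources used here. Values were put on the log2 scale here. Of 32321 probe sets, 19158 had 1 gene symbol, 1388 several and 11775 were not listed. The brightest single-symbol probe set stood for a gene (18404 genes, 19128 of the probe sets matched by Entrez ID). All genes entered 1 limma model with a mean per group (limma 3.58.1, R 4.3.3, 8 residual degrees of freedom). P-values are two-sided, with Benjamini-Hochberg adjustment within each contrast and a threshold of 0.05. Precision is limited by how few arrays there are. Replicates carry the numbers of the sample descriptions. The members and gene lists were chosen with earlier results of these data known. All 10 members are named, with up to 3 pathway genes per direction and comparison; other pathway genes named were picked after their values were seen. Alternatives changed normalization, probe set choice, dim genes, variance prior, replicate blocks and arrays. The fit was tested on simulated data.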

Additional observations from a re-analysis of the deposited data

Results flagged for a closer look

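The effect of TP63 knockdown differed between FaDU and JHU-029, by limma's test of the difference itself, for 4 of the 10 Notch genes. Over all genes 13.2% passed that test, 4.97% higher and 8.25% lower. The FaDU change minus the JHU-029 change was -1.18 for JAG1, -0.72 for MFNG, -0.70 for NOTCH2 and -0.41 for HES1. MFNG lay under the median gene in every group, so the size of its difference is uncertain. For HES1 the changes had opposite signs, -0.32 in FaDU and 0.09 in JHU-029, and the JHU-029 value did not pass on its own.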

How the results depend on the processing

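Of 35 called changes of single named genes, 0 reversed sign under the 23 alternatives, but keeping the sign asks less than keeping the call. Calls were lost under some alternatives for JAG2, DLL1 and DTX4 in JHU-029 and for NOTCH1 and POGLUT1 in FaDU. The same held for HEY1 between the control groups. It also held for the differences in effect of APH1B, DLL4, POFUT1, NRARP and TLE1. The fall of 7 Notch genes in FaDU became 6 or 7 calls in either direction, and 4 or 5 genes differed between the lines. Without FaDU shTP63 replicate 1, the fall of NOTCH1 was lost and LFNG passed as a rise. The JHU-029 count of 2 was less firm: it was 4 with each line fitted alone, 0 with the replicate block fixed and 0 with it random, and between 0 and 4 without single arrays, being 0 without any 1 of the JHU-029 arrays and 4 without FaDU shTP63 replicate 2. The 2 pathway genes called in JHU-029 became 4 among genes above the median mean and 1 with a fixed replicate block, and 1 to 3 without single arrays. Same-numbered arrays did not deviate together (correlations between -0.339 and 0.0134), and differently numbered arrays gave -0.133 to 0.294. With 3 arrays per group, these values cannot decide whether same-numbered arrays share a culture or day. Changes that passed nowhere turned sign without single JHU-029 arrays: NOTCH1 (-0.0600 to 0.00296), NOTCH3 (-0.119 to 0.0497), LFNG (-0.0430 to 0.0222) and HEY1 (-0.00778 to 0.0646). The MFNG difference between the control groups was 0.0648 with each array centred on its median and 0.0299 without both FaDU controls titled new. JAG1 in JHU-029 passed among genes above the median mean (adjusted p = 0.0361), with an intensity trend (0.0214) and with each line fitted alone (0.0225). The cause of these shifts was not tested. MFNG, HEY1, APH1B and DLL4, which lie under the median gene, are limited by dim signal and have no value among genes above the median mean, and fitting each line alone gives no difference between lines.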

Other observations

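Under control shRNA, 26 of the 46 other Notch pathway genes differed between the lines, 10 higher and 16 lower in FaDU, where 63.8% of all genes differed. The genes named here were picked after their values were seen. The co-repressor TLE4 averaged 5.72 ± 0.07 in FaDU shControl and 8.55 ± 0.10 in JHU-029 shControl (log2 intensity, SD, n = 3 each; limma adjusted p = 2.09e-11). Its FaDU level lay under the median gene, so the size of the fold is uncertain. MAML2 was 3.66-fold lower in FaDU shControl than in JHU-029 shControl (limma adjusted p = 2.64e-11). NRARP, the feedback inhibitor, was 3.63-fold higher in FaDU shControl (limma adjusted p = 1.78e-10), and the splicing and Notch co-activator protein SNW1 was 2.90-fold higher (limma adjusted p = 3.52e-10). Of the 7 further target genes, HES4, HES6 and HEYL were higher and HEY2 was lower in FaDU shControl. Of these, HES6, HEYL and HEY2 lay under the median gene in both control groups, so the size of their folds is uncertain.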
